A study of Mus musculus with 10 samples.

Results

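The miR-181 family in the mouse heart is described here by 7 mature arms, picked by name: mmu-miR-181a-5p, mmu-miR-181a-1-3p, mmu-miR-181b-5p, mmu-miR-181b-2-3p, mmu-miR-181c-5p, mmu-miR-181c-3p and mmu-miR-181d-5p (the species prefix is left out from here on). They are 7 of the 1139 mature miRNAs in the deposited count table, which holds 10 miR-181 arms in all. The 10 small RNA libraries were made from hearts of C57Bl6N males, 1 week after surgery for transverse aortic constriction. This operation narrows the aortic arch, so the left ventricle has to pump against a higher pressure. Both groups had the operation. The 5 control libraries came from floxed control hearts, and the 5 knockout libraries from hearts labelled CITED4 knockout; CITED4 is a transcriptional co-regulator. The sources used here do not give the Cre driver, the cell type that lost the gene, the age of the mice or whether each library is a separate animal, and the tests are therefore set against a spread between libraries that could be purely technical.

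A miRNA is cut from a hairpin that yields a 5p and a 3p arm, of which the more abundant is called the guide and the other the passenger. The guide pairs with target messenger RNAs mainly through its seed, bases 2 to 8, and lowers their output. In the miR-181 family the 5p arms are the guides; miR-181a is known for setting the sensitivity of developing T cells, miR-181b for restraining NF-kappa B signalling in endothelium, and miR-181c for entering heart mitochondria, where it lowers a subunit of respiratory complex IV that is encoded in the mitochondrial genome.

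The sequences show why the 4 guides form a family and how little they differ from each other. They are RefSeq sequences (GRCm38.p6), written 5′ to 3′ with the seed in capitals, and all 10 arms of the table matched an entry by name.
miR-181a-5p: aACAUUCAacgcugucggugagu
miR-181b-5p: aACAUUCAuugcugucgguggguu
miR-181c-5p: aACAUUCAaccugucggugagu
miR-181d-5p: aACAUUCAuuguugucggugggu
The passenger arms are shown because they differ between hairpins whose guides are identical, and so tell which locus a transcript came from.
miR-181a-1-3p: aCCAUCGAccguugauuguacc
miR-181a-2-3p: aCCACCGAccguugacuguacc
miR-181b-1-3p: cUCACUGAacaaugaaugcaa
miR-181b-2-3p: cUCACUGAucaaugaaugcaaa
miR-181c-3p: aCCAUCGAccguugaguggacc

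All 4 guides carry the seed ACAUUCA, and no other of the 1679 mature mouse miRNA names in the reference has it. Counting positions from the 5′ end, miR-181b-5p differs from miR-181a-5p by A9U, C10U and A21G and is longer by 1 base. miR-181d-5p differs from miR-181b-5p by C12U and is shorter by 1 base. miR-181c-5p is 1 single-base edit away from miR-181a-5p. Among passengers, miR-181c-3p shares its seed with miR-181a-1-3p and differs from it by U16G and U19G. Each of the 7 members had counts of its own, with 0 other rows identical, but how the authors assigned reads that fit more than 1 guide is not stated in the labels.

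The family lies in 3 clusters of 2 hairpins each (RefSeq hairpins, host genes from GENCODE M21, both on GRCm38). Mir181a-1 (137966455 to 137966541, plus strand) and Mir181b-1 (137966639 to 137966718) are on chromosome 1 with 97 bases between them, in an intron of the noncoding Gm4258 and overlapping an exon of the long noncoding RNA A430106G13Rik. Mir181a-2 (38852735 to 38852810, plus strand) and Mir181b-2 (38853830 to 38853918) are on chromosome 2, 1019 bases apart, inside Nr6a1 but on the strand opposite to it. Mir181d (84178716 to 84178787, minus strand) and Mir181c (84178873 to 84178961) are on chromosome 8, 85 bases apart, in an intron of Nanos3 on its own strand. The guides miR-181a-5p and miR-181b-5p therefore sum the output of the chromosome 1 and chromosome 2 clusters, whereas miR-181c and miR-181d come from chromosome 8 alone.

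The libraries held 7526091 to 18369483 counts. Levels are given as CPM (counts scaled to a common library size), with library sizes multiplied by TMM factors, which correct for a few miRNAs taking a large share of some libraries; the factors ran from 0.790 to 1.22. The heart muscle miRNAs that mark cardiomyocytes (miR-1a-3p, miR-133a-3p, miR-208a-3p and miR-499-5p) were present in every library, with a summed level of 242432 to 503939 CPM in controls and 220406 to 386502 CPM in knockouts. All 7 members passed the filter on low counts, among the 457 miRNAs that were tested.

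The guides differed widely in abundance, while their order was the same in all 10 libraries. miR-181a-5p was the most abundant, at 7026 CPM over the 10 libraries and rank 26 of the 457 tested miRNAs. Then followed miR-181b-5p at 1195 CPM, miR-181d-5p at 249 CPM, miR-181c-5p at 159 CPM, miR-181a-1-3p at 31.6 CPM, miR-181c-3p at 22.6 CPM and miR-181b-2-3p at 2.05 CPM. Each arm was above the next in 10 of 10 libraries. The ranges of miR-181d-5p and miR-181c-5p overlapped across libraries, as did those of miR-181a-1-3p and miR-181c-3p, and the other neighbouring ranges were separate. Mature miRNAs are of nearly equal length, so these levels can be set side by side, within the ligation bias of small RNA libraries, which was not measured.

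Knockout hearts had lower mean levels of 6 of the 7 arms, by 0.21 to 0.44 on the log2 scale, and none passed the test. The lowest relative levels were those of the chromosome 8 cluster: miR-181c-3p at 0.735, miR-181d-5p at 0.753 and miR-181c-5p at 0.784 of the control level, against 0.867 for miR-181a-5p and 0.837 for miR-181b-5p. The exception was the rare passenger miR-181b-2-3p, at 1.29 times the control level. Of the 457 miRNAs tested, 0 (0%) reached the adjusted threshold of 0.05 by edgeR's quasi-likelihood test, where the smallest adjusted p was 0.64. DESeq2 and limma-voom called 0 too, and before adjustment 29 (6.35%) were under 0.05 by edgeR. The median log2 fold change of the 7 arms was -0.26, against 0.03 over all 457 miRNAs, of which 214 (46.8%) were negative. Arms of the same cluster can come from a shared transcript, so the 7 arms are not 7 separate measurements.

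**Figure D1:**
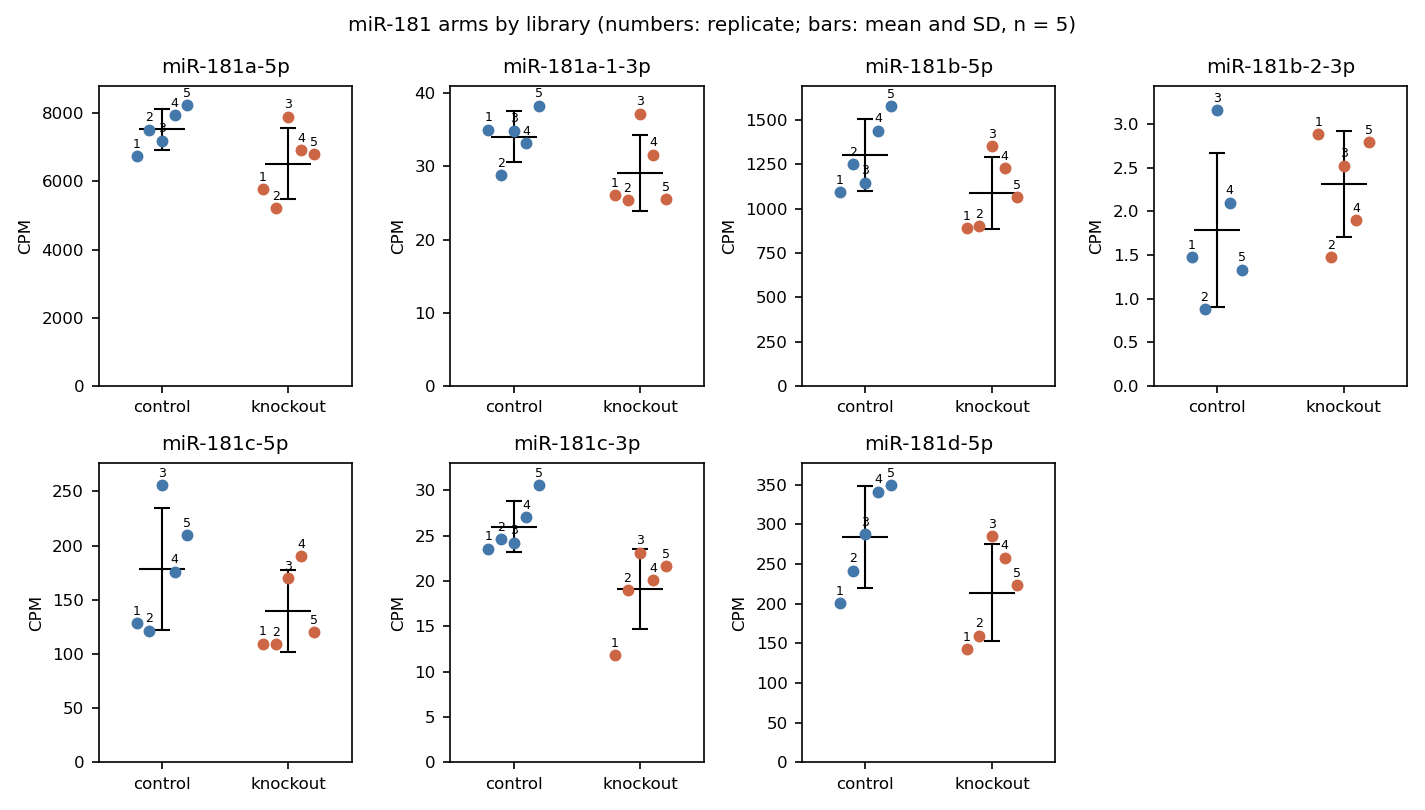
Level of each miR-181 arm in CPM (linear axis from 0) in the 5 control and 5 knockout libraries; points are libraries numbered by replicate, and bars are the mean and SD. Knockout replicates 1 and 2 are the lowest 2 libraries for miR-181a-5p, miR-181b-5p, miR-181c-5p, miR-181c-3p and miR-181d-5p, and the groups are separate only for miR-181c-3p.

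miR-181a-5p, the dominant guide, stood at 6746, 7522, 7194, 7937 and 8232 CPM in control replicates 1 to 5. In knockout replicates 1 to 5 it stood at 5771, 5222, 7905, 6925 and 6809 CPM. Knockout replicates 1 and 2 were below every control, replicates 4 and 5 were inside the control range near its lower end, and replicate 3 was above 3 of the controls. The means were 7526 ± 589 and 6526 ± 1050 CPM (SD, n = 5 per group). On the log2 scale the fitted difference was -0.21 ± 0.14 (SE), 95% interval -0.51 to 0.10 (edgeR, unadjusted p = 0.17, adjusted p = 0.64). With library totals alone the log2 fold change was -0.10, and without knockout replicate 2 it was -0.11. Library totals also moved the median over all 457 tested miRNAs, from 0.03 to 0.14, so that change is not particular to this arm.

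miR-181b-5p, made beside miR-181a in both of its clusters, was at 1092, 1250, 1147, 1440 and 1578 CPM in control replicates 1 to 5 and at 891, 901, 1355, 1230 and 1067 CPM in knockout replicates 1 to 5. Knockout replicates 1, 2 and 5 lay below all controls, and replicates 3 and 4 inside the control range. Its means were 1302 ± 204 and 1089 ± 204 CPM (SD), and the log2 fold change -0.26 ± 0.16 (SE), 95% interval -0.60 to 0.08 (edgeR, unadjusted p = 0.13, adjusted p = 0.64). It was -0.14 with library totals alone, and -0.17 without control replicate 5 or without knockout replicate 1 or 2.

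miR-181c-5p, the guide linked to mitochondrial complex IV, had the largest coefficient of variation of the guides over the 10 libraries, at 31.2%. That of miR-181d-5p was close, at 28.0%, with 18.6% for miR-181b-5p and 13.7% for miR-181a-5p. Among knockouts alone miR-181d-5p varied more, at 28.7% against 27.1% for miR-181c-5p. For miR-181c-5p, control replicates 1 to 5 had 128, 121, 256, 176 and 210 CPM, and knockout replicates 1 to 5 had 109, 109, 170, 190 and 120 CPM. The groups overlapped: knockout replicates 3 and 4 were above the lowest 2 controls, and control replicate 3 was the highest of all libraries. Means of 178 ± 56.4 and 139.7 ± 37.8 CPM (SD) gave a log2 fold change of -0.35 ± 0.23 (SE), 95% interval -0.86 to 0.15 (edgeR, unadjusted p = 0.16, adjusted p = 0.64). Without control replicate 3 it was -0.16 (unadjusted p = 0.49).

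miR-181c-3p, the passenger arm of the same hairpin, was the arm whose groups did not overlap. Its control libraries held 23.6, 24.6, 24.2, 27.0 and 30.5 CPM, from 207 to 280 counts each. Its knockout libraries held 11.8, 19.0, 23.1, 20.1 and 21.6 CPM, from 143 to 394 counts. Knockout replicate 1 was far below the others, and the highest knockout value, in replicate 3, was just under the lowest control. Means of 26.0 ± 2.86 and 19.1 ± 4.38 CPM (SD) gave a log2 fold change of -0.44 ± 0.19 (SE), 95% interval -0.85 to -0.03 (edgeR, unadjusted p = 0.036, adjusted p = 0.64). It ranked 18 of 457 by p. All knockout libraries lay below all controls for 3 of the 457 miRNAs (0.656%), the others being miR-29c-5p and miR-700-3p, and 16 (3.50%) were lower with an unadjusted p under 0.05. The separation depended on scaling, since with library totals alone the highest knockout, at 21.7 CPM, was above the lowest control, at 21.3 CPM. Without knockout replicate 1 the log2 fold change was -0.28 (unadjusted p = 0.10).

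miR-181d-5p, the guide from the hairpin next to miR-181c, had 200, 241, 288, 341 and 349 CPM in control replicates 1 to 5. The knockout values were 143, 160, 285, 258 and 223 CPM. Knockout replicates 1 and 2 were below every control, and the others fell inside the control range. Means of 284 ± 64.0 and 214 ± 61.4 CPM (SD) gave a log2 fold change of -0.41 ± 0.22 (SE), 95% interval -0.88 to 0.06 (edgeR, unadjusted p = 0.081, adjusted p = 0.64). It was -0.27 without knockout replicate 1.

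The passengers of the other clusters are thinner measurements. miR-181a-1-3p, specific to chromosome 1, had 28.7 to 38.3 CPM in controls and 25.3 to 37.2 CPM in knockouts, with 258 to 589 counts a library. Its log2 fold change was -0.22 ± 0.16 (SE; adjusted p = 0.64 in edgeR's test), close to that of its guide, and -0.13 with library totals alone. miR-181b-2-3p, specific to chromosome 2, rested on 10 to 51 counts a library, with 0.879 to 3.16 CPM in controls and 1.47 to 2.89 CPM in knockouts. The knockout range lay inside the control range, and the log2 fold change was 0.40 ± 0.37 (SE; 95% interval from -0.40 to 1.19, adjusted p = 0.66 in edgeR's test). It was 0.73 without control replicate 3 and 0.23 without control replicate 2.

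**Figure D2:**
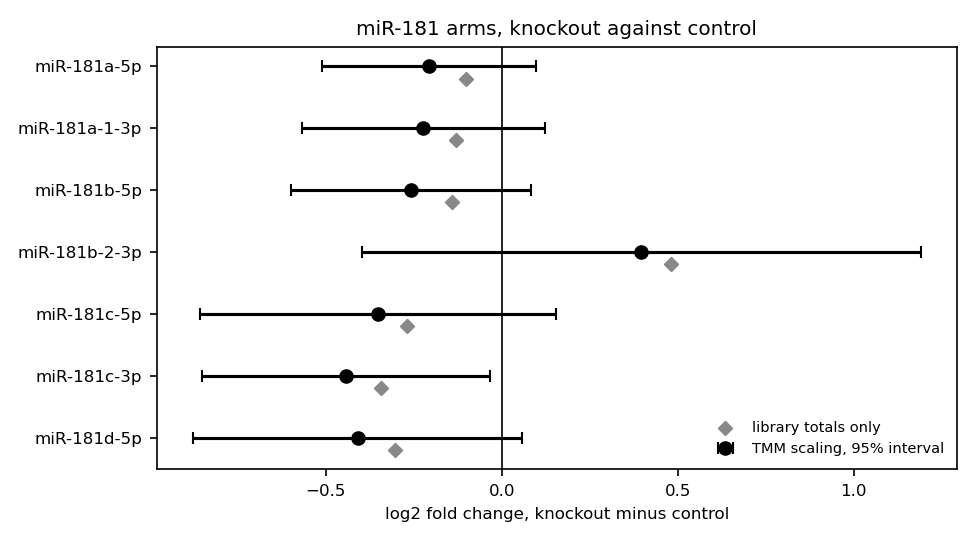
Log2 fold change of each miR-181 arm, knockout minus control; circles with bars are the edgeR estimates with TMM scaling and 95% intervals, and grey diamonds are the estimates with library totals only. The interval excludes 0 for miR-181c-3p alone, and each diamond lies to the right of its circle. The median over all 457 tested miRNAs moved the same way, from 0.03 to 0.14.

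The 3 remaining arms of the table were too rare to test. miR-181a-2-3p had 12 counts over all libraries, in 1 control and 2 knockout libraries. miR-181b-1-3p had 19 counts, in 4 libraries of each group. miR-181d-3p had 6 counts, in 3 controls, and 0 in the 5 knockouts, where a count of 0 allows up to 0.164 to 0.295 CPM a library, on the same TMM scale (3 counts, counting error only). By locus, of the miR-181a passenger counts 0.335% were from chromosome 2, whereas of the miR-181b passenger counts 7.25% were from chromosome 1. Knockout replicate 5 held 7 of the 12 miR-181a-2-3p counts, and without it the chromosome 2 share was 0.161%. Passenger arms are degraded at different rates, and how many guides each locus made was not measured.

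The summed level of the 4 guides, which does not depend on how reads were split between them, was 0.730% to 1.01% of all counts. Control hearts averaged 9290 ± 863 CPM and knockout hearts 7969 ± 1334 CPM (SD, n = 5 each). On the log2 CPM scale the knockout minus control difference was -0.23 (exact two-sided permutation test, p = 0.10, where 5 libraries against 5 allow no p below 0.0079). Without knockout replicate 3 the difference was -0.31 (exact permutation test, p = 0.032), and with library totals alone -0.11 (p = 0.17). With any other single library left out, the p of the same test ran from 0.079 to 0.21. Within this sum, miR-181a-5p took 81.1% ± 1.37 in controls and 82.0% ± 1.19 in knockouts, miR-181b-5p 13.9% ± 0.928 and 13.6% ± 0.660, miR-181d-5p 3.03% ± 0.452 and 2.64% ± 0.378, and miR-181c-5p 1.92% ± 0.596 and 1.74% ± 0.286. None of the 4 shares passed the test between groups (exact permutation tests, adjusted p from 0.62 to 0.63).

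Ratios within a library need no scaling and set arms and clusters against each other. No arm passed the test between groups, so these ratios cannot show that a change was shared. In each case the groups overlapped. The ratio of miR-181c-5p to its own passenger was 4.93 to 10.5 over the 10 libraries, with a mean log2 ratio of 2.72 ± 0.42 in controls and 2.86 ± 0.36 in knockouts. That of miR-181a-5p to miR-181a-1-3p was far higher, 192 to 267, at 7.79 ± 0.18 and 7.81 ± 0.15 on the log2 scale. The ratio of miR-181b-5p to miR-181b-2-3p was 9.58 ± 0.75 in controls and 8.87 ± 0.45 in knockouts, a difference of -0.70 (exact permutation test, p = 0.10, adjusted p = 0.62). Without control replicate 3 that difference was -0.98 with an adjusted p of 0.048 (exact permutation test over 9 libraries). With any other single library left out, the adjusted p of the same test ran from 0.57 to 0.95.

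Between clusters, the log2 ratio of miR-181c-5p to miR-181a-5p was -5.45 ± 0.43 in controls and -5.57 ± 0.24 in knockouts. The difference between groups was -0.12 (exact permutation test, adjusted p = 0.75), and 0.043 without control replicate 3. No difference between the 2 guides in their fold change was thus detectable with these libraries. The same was not tested for miR-181c-3p or miR-181d-5p against miR-181a-5p. Within the chromosome 8 cluster, miR-181d-5p to miR-181c-5p was 0.70 ± 0.33 and 0.60 ± 0.21. The ratio of miR-181b-5p to miR-181a-5p had the smallest spread, at -2.54 ± 0.11 and -2.59 ± 0.09. Over the 6 ratios the adjusted p ran from 0.62 to 0.86 (exact permutation tests).

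**Figure D3:**
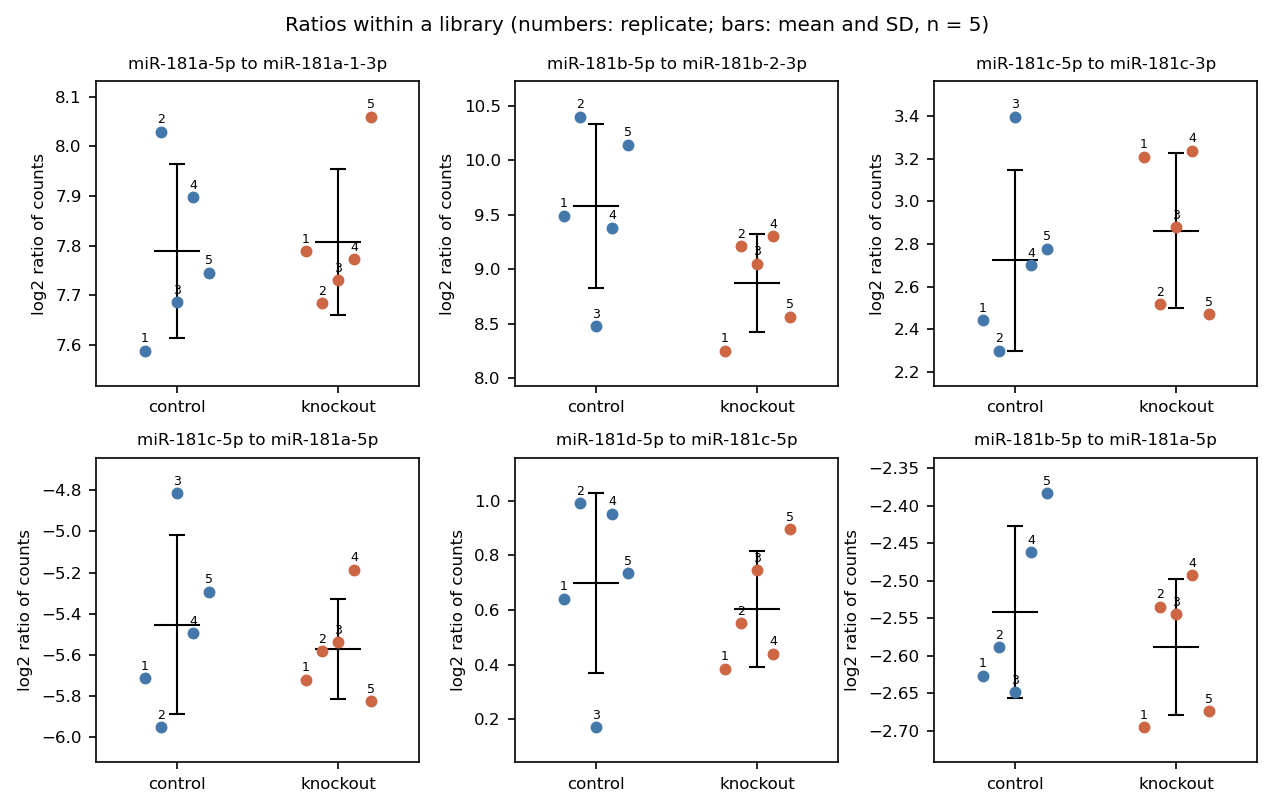
Log2 ratio of counts, with 0.5 added to each count, for 3 pairs of 5p to 3p arms (top) and 3 pairs of guides (bottom) in the 5 control and 5 knockout libraries; points are libraries numbered by replicate, bars are the mean and SD, and the axes do not start at 0. The groups overlap in all 6 panels, and control replicate 3 is the highest library for miR-181c-5p against miR-181c-3p and against miR-181a-5p.

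Correlations between members across the 10 libraries depended on scaling. With TMM scaling 12 of the 21 pairs of arms passed an adjusted p of 0.05 (Pearson r of log2 CPM, permutation tests with 100000 resamples, adjusted over 21 pairs). This count was 0 with library totals alone, 5 on deviations from group means, 5 without control replicate 5 and 7 without knockout replicate 1 or 2. By Spearman rho, miR-181a-1-3p did not pass with miR-181a-5p, miR-181b-5p, miR-181d-5p or miR-181c-3p, though it did by r (permutation tests, adjusted p for rho from 0.051 to 0.074). The other pairs that passed by r also passed by rho. How often pairs of other miRNAs pass was not tested, so the 12 pairs cannot show a link particular to the family. The cluster partners miR-181a-5p and miR-181b-5p had r = 0.95 and rho = 0.96 (permutation tests, adjusted p = 0.00042 and 0.0010). Without the 2 libraries farthest from the median of miR-181a-5p, knockout replicates 1 and 2, r was 0.94. With library totals alone it was 0.69 (permutation test, adjusted p = 0.11).

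miR-181d-5p, from chromosome 8, had r = 0.95 with miR-181b-5p, the guide from the other clusters that is closest to it in sequence (rho = 0.90, permutation tests, adjusted p = 0.0014 and 0.0064, and 0.91 without the 2 libraries farthest from the median of miR-181b-5p). It was 0.85 with miR-181c-3p (rho = 0.81, adjusted p = 0.0029 and 0.021, permutation tests, and 0.72 without 2 libraries) and 0.81 with miR-181c-5p (rho = 0.87, adjusted p = 0.017 and 0.011, permutation tests, and 0.83 without 2 libraries). The 2 arms of the miR-181c hairpin were less alike, with r = 0.56 and rho = 0.64 (permutation tests, adjusted p = 0.11 and 0.078, and r = 0.48 without control replicates 3 and 5). The differences between these correlations were not tested. miR-181b-2-3p passed with no other member, and its r ran from -0.39 with miR-181c-3p to 0.24 with miR-181c-5p (permutation tests, adjusted p from 0.36 to 0.89).

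**Figure D4:**
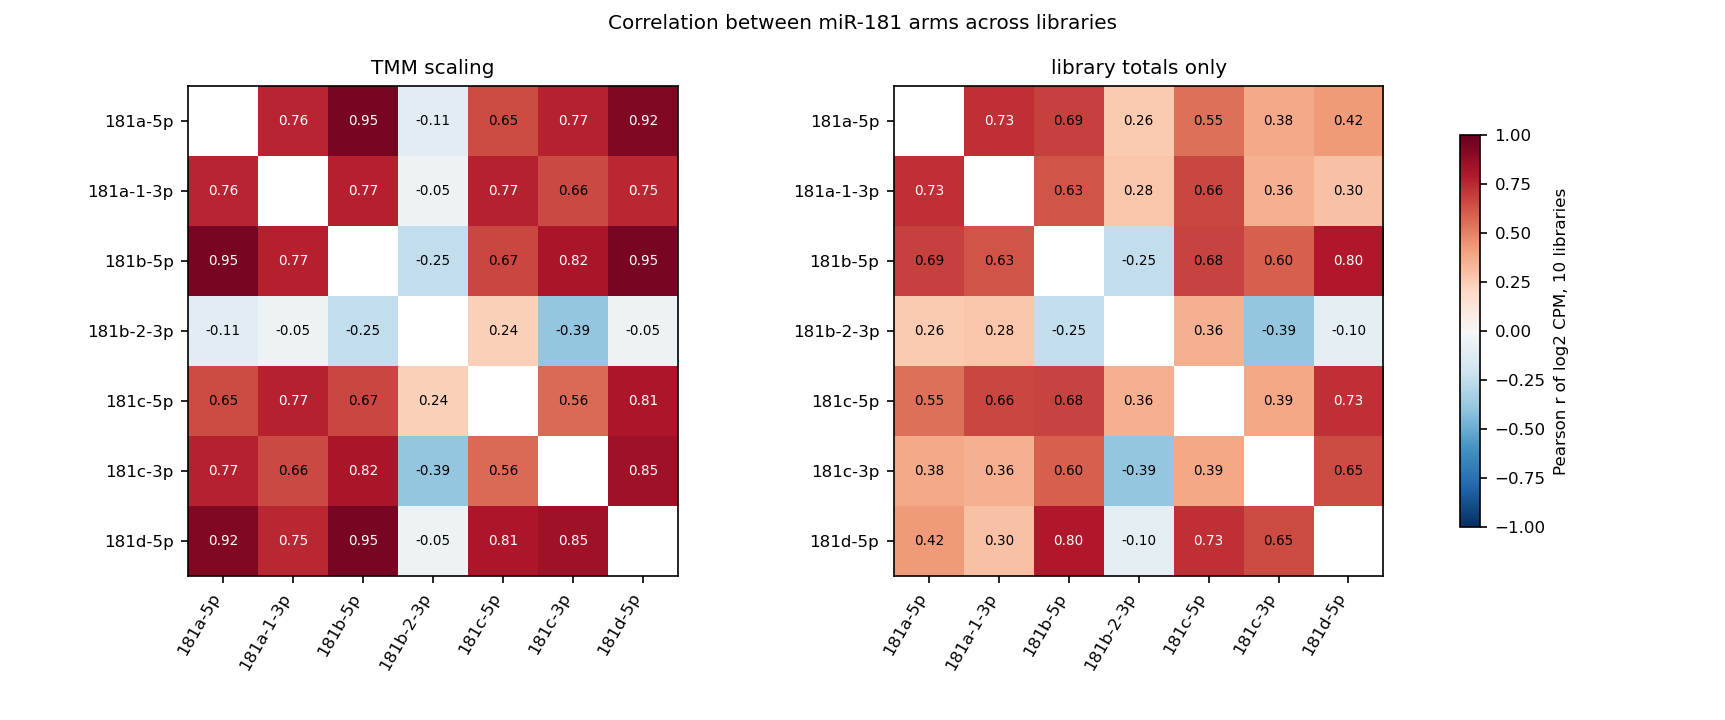
Pearson r of log2 CPM between each pair of miR-181 arms over the 10 libraries, with TMM scaling (left) and with library totals only (right); red is positive and blue negative. miR-181a-5p with miR-181d-5p has r = 0.92 on the left and 0.42 on the right, while miR-181b-5p with miR-181d-5p has 0.95 and 0.80.

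Of the 450 tested miRNAs that are not members, those most like miR-181a-5p over the 10 libraries (Pearson r of log2 CPM with TMM scaling, as a description) were miR-30d-5p (0.92), miR-23b-3p (0.91), miR-30a-5p (0.89), miR-26a-5p (0.88) and miR-26b-5p (0.87). Those most like miR-181c-5p were miR-30b-5p (0.98), miR-29c-3p (0.97), miR-378b (0.96), miR-101a-3p (0.95) and miR-30c-5p (0.94). These values are higher than the r of miR-181c-5p with any other member of its family, the highest of which was 0.81; they are the highest of 450, and all share the scaling factors. The log2 fold changes of these 10 miRNAs ran from -0.61 for miR-30a-5p to -0.19 for miR-26b-5p, and 0 of them passed the adjusted threshold in edgeR's test.

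Other miRNAs linked to mitochondria in heart or muscle had fold changes in both directions. Of 8 listed, 7 were tested and miR-484 was not analysed here. Of the 7, 3 were lower, 4 were higher and 0 passed in edgeR's test. Their log2 fold changes ran from -0.56 (miR-378a-3p) to 0.56 (miR-21a-5p), with a median of 0.12. The -0.35 of miR-181c-5p lay inside that range. miR-378a-3p, made from an intron of the metabolic regulator Ppargc1b, averaged 68470 ± 21264 CPM in control hearts and 46443 ± 16894 CPM in knockout hearts; its log2 fold change was -0.56 ± 0.27 (SE; edgeR, unadjusted p = 0.061, adjusted p = 0.64). Its range was 42470 to 87372 CPM in controls and 30170 to 72385 CPM in knockouts. miR-21a-5p, linked to cardiac fibrosis, had a knockout minus control difference of 0.56 ± 0.35 (log2, SE), and the value for miR-499-5p, encoded in the myosin gene Myh7b, was -0.34 ± 0.27 (edgeR, adjusted p = 0.64 for both).

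Markers of the cell types of the heart were listed beside the members; in bulk samples fewer cells of a type and less RNA per cell cannot be told apart. The log2 fold change of cardiomyocyte markers was negative in 4 of 4, and their summed level averaged 356467 ± 123478 CPM in control hearts and 303903 ± 77924 CPM in knockout hearts (SD, n = 5 each). Most of this sum was miR-1a-3p, which alone averaged 351241 CPM in controls and 299919 CPM in knockouts. Endothelial markers (miR-126a arms) were negative in 2 of 2, from 26220 to 35318 CPM in controls and from 25223 to 34443 CPM in knockouts. Erythroid markers (the miR-144 arms and miR-486a-5p) were negative in 3 of 3, from 13759 to 33016 CPM in controls and from 11532 to 25240 CPM in knockouts. Whether miR-486a-5p came from blood or from muscle was not tested. Fibroblast markers were positive in 3 of 3, from 9183 to 23242 CPM and from 12331 to 24561 CPM. Leukocyte markers, with 3 of 5 negative, lay at 1562 to 1593 CPM in controls and 1386 to 1762 CPM in knockouts, and smooth muscle markers, with 2 of 2 negative, at 27826 to 33670 and 26124 to 32865 CPM. No sum passed the test between groups (exact permutation tests, adjusted p from 0.44 to 0.77 over 6 lists).

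Over the 10 libraries the cardiomyocyte sum varied with miR-181a-5p, with r = 0.82 and rho = 0.89 (log2 CPM with TMM scaling, permutation tests, adjusted p = 0.030 and 0.015 over 12 relations of 6 lists with miR-181a-5p and miR-181c-3p). That sum is mostly miR-1a-3p, which took 24.8% to 39.3% of all counts in a library, and both sides of the relation share the TMM factors. Without control replicates 4 and 5, the libraries farthest from the median of that sum, r was 0.75. With library totals alone it was -0.23, and 0 of the 12 relations passed (permutation tests, adjusted p = 0.998 for each). The erythroid sum had r = 0.74 and rho = 0.81 with miR-181a-5p (permutation tests, adjusted p = 0.051 and 0.042, and r = 0.76 without control replicate 3 and knockout replicate 1), and r = 0.43 with library totals alone. The fibroblast sum had r = -0.60 and rho = -0.76 with miR-181a-5p (permutation tests, adjusted p = 0.15 and 0.062, and r = -0.53 without control replicates 3 and 5), and r = -0.022 with library totals alone. With miR-181c-3p the r of these sums was 0.64, 0.70 and -0.41 (permutation tests, adjusted p = 0.093, 0.051 and 0.30). The part of these cell types in the difference between groups was not tested.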

How the data were processed

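Per the labels' protocols, the 5 control and 5 knockout small RNA libraries were prepared with a NEXTflex kit. The authors deposited raw read counts per mature miRNA, and a normalized signal that equals the count divided by 1 factor per library (relative tolerance 1e-09), which equals the DESeq2 size factor. Per the submitters' processing notes, the tools were STAR, Bowtie, cutadapt 1.10 and DESeq2, with build GRCm38; no roles, miRNA release or handling of molecular identifiers are stated there. Columns were matched to samples through their titles.

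Counts were filtered with filterByExpr (457 of 1139 miRNAs, 99.99% of counts), scaled with TMM and tested with edgeR 4.0.16 (R 4.3.3), genotype as the only term, Benjamini-Hochberg adjusted over 457. The prior count in log2 CPM was 2. The SE is the size of the log2 fold change divided by the square root of F. Guide sums, shares and ratios used exact permutation tests over libraries. No 2 libraries of 1 group agreed within sampling noise (chi-square per degree of freedom at least 108). Fits were checked on simulated counts with changes far larger than those of the members. That check does not cover differences as small as those seen here. DESeq2 1.42.0 and limma 3.58.1 were alternatives, with other scalings and filters, a replicate block, and each library left out. Named miRNAs were the 7 members, the other arms, the 5 most correlated with miR-181a-5p and with miR-181c-5p, and the 3 of the mitochondria list with the smallest p. Members and lists were chosen with earlier results of these data known.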

Additional observations from a re-analysis of the deposited data

Results flagged for a closer look

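Each of 31 values (members, guide sum, shares, ratios and other named miRNAs) was searched, separately among controls and knockouts, for a single distant library: its gap to the closest library was divided by the spread from lowest to highest. Dixon's 95% limit for this quotient with 5 libraries is 0.71, and 2 of the 62 sets exceeded it; about 1 in 20, or 3.1, would do so by chance. The log2 ratio of miR-181a-5p to miR-181a-1-3p in knockout replicate 5 was 8.06 against 7.68 to 7.79 in the other knockouts (share of the range 0.722). The miR-499-5p level of knockout replicate 4 was 3815 CPM against 1820 to 2396 CPM (0.711).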

How the results depend on the processing

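The count of 0 miRNAs past the threshold was the same in all 17 alternative fits, with a smallest adjusted p from 0.15 (replicate block) to 0.99 (DESeq2), while the count at an unadjusted p under 0.05 went from 29 to 72 with the replicate block, 102 of 1105 without a low-count filter, 45 of 1105 with DESeq2, 16 of 282 with the stricter filter and 14 with library totals. With 1 library left out it ran from 6 (control replicate 5) to 84 (control replicate 1), and was 8 without knockout replicate 1 and 65 without knockout replicate 4. The stricter filter removed miR-181b-2-3p, so that arm has 16 alternative values. Each member kept its sign in every alternative. The replicate numbers are not stated to pair libraries: same-number pairs correlated from -0.12 to 0.45 in their deviations, for 4 of 10 libraries the closest was the one with the same number, and the block changed no call (for miR-181d-5p the unadjusted p was 0.0084 and the adjusted p 0.18). When libraries were scaled by their totals, the median over all tested miRNAs went from 0.03 to 0.14 (log2).

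With 1 library left out, the guide sum difference ranged from -0.31 to -0.16, the difference in the ratio of miR-181a-5p to miR-181a-1-3p from -0.045 to 0.078, in that of miR-181b-5p to miR-181b-2-3p from -0.98 to -0.50, and in that of miR-181c-5p to miR-181a-5p from -0.24 to 0.043. The count of correlated pairs ranged from 5 to 14, was 0 with library totals only and 5 on deviations from group means. Of 273 alternative correlations, 15 changed sign, all with miR-181b-2-3p and none past the threshold. The changed values ran from -0.034 to 0.28. With library totals they were 0.26 (miR-181a-5p) and 0.28 (miR-181a-1-3p), and on deviations 0.15 (miR-181a-5p), 0.22 (miR-181a-1-3p) and 0.21 (miR-181d-5p). The other 10 arose with 1 library left out, where the full ranges, unchanged signs included, were -0.39 to 0.065 for miR-181a-5p, -0.23 to 0.12 for miR-181a-1-3p, -0.19 to 0.22 for miR-181d-5p and -0.034 to 0.44 for miR-181c-5p. The cause of these changes was not tested. The 10 to 51 counts of miR-181b-2-3p limit its precision.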
